A study of Mus musculus with 4 samples.

Results

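The genes described here are 37 genes of homologous recombination and DNA damage repair, measured in RNA from mouse regulatory T cells. They were taken by name from a fixed list of repair genes, and all 37 were found among the 50600 genes of the count files, through their Ensembl identifiers and GENCODE symbols. Regulatory T cells hold immune responses in check; they are CD4+ cells and depend on the transcription factor Foxp3. The study has a single group of 4 libraries from strain C57BL/6NJ, numbered as biological replicates 1 to 4, with age labelled unknown and sex not collected. No treated or control group is labelled, so the comparisons below are between repair pathways, between partner genes and between the 4 libraries. The labels link a protocol for differentiating CD4+ T cells, and the names of the alignments recorded in the count files read as activated, sorted cells at 72 h. A single donor record covers the 4 separate biosamples, and no label says whether animals or cultures were separate. The p-values for spread below therefore measure only how far these samples spread, which may in part be technical. Those for partner genes address only whether a difference within a library lies off 0 across these 4 samples. Levels of the sex-linked genes Xist and Ddx3y, given below, set replicates 1 and 2 apart from 3 and 4.

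Cells meet double-strand breaks and stalled replication forks each time they copy their DNA. Homologous recombination mends such damage from the sister chromatid and works in S and G2 phase, the Fanconi anaemia pathway unhooks crosslinks between the strands, and end joining religates broken ends in any phase of the cell cycle. Checkpoint kinases hold the cycle while repair proceeds. In lymphocytes the end joining factors also seal the breaks made during antigen receptor gene rearrangement, a step that mature T cells have already passed.

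Each library held between 32648138 and 94983494 counts of read pairs assigned to genes. All 7 regulatory T cell markers examined were expressed in every library, and Foxp3 had 460, 465, 495 and 433 TPM in replicates 1 to 4. TPM, a relative transcript abundance, is a count divided by the gene's exon length and scaled to the same total in each library; a gene is called expressed here at 1 TPM or more in every library. Of the markers of other cells, 1 of 5 B cell, 1 of 5 CD8 and NK cell, 1 of 7 myeloid and 0 of 5 stromal and endothelial genes were expressed, namely Cd79b, Cd8b1 and Adgre1, while Ncr1, S100a8 and Cdh5 had no counts in any library. Their summed levels were 5.32 to 7.34 TPM for B cells, 12.9 to 17.9 TPM for CD8 and NK cells, 1.32 to 3.29 TPM for myeloid cells and 1.09 to 1.79 TPM for stromal and endothelial cells, against 4594 to 4973 TPM for the regulatory T cell markers. The libraries differed among themselves in other genes. Xist, the RNA that silences an X chromosome in females, had 312 and 331 TPM in replicates 1 and 2 but 0.539 and 2.38 TPM in replicates 3 and 4, and Ddx3y, a Y-linked gene, had 0.0664, 0.0264, 26.0 and 31.2 TPM in replicates 1 to 4. By these genes replicates 1 and 2 read as female and replicates 3 and 4 as male, although the labels give no sex. Replicate 1 also had the highest level of Gm42418, a gene known to overlap ribosomal RNA sequence, at 11891 TPM against 1555 to 4335 TPM in the others. The part of these differences in the repair gene values was not tested.

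All 37 repair genes were expressed in all 4 libraries, at mean levels between 3.64 TPM for Rad51c and 116 TPM for Msh6. The median repair gene stood at 26.1 TPM, against 26.2 TPM over all 12114 expressed genes and 30.9 TPM over the expressed protein-coding genes. Of the 37, 22 averaged 20 TPM or more, as did 6948 of the 12114 expressed genes, so the repair genes as a group sat near the middle of the expressed range. Together they summed to 1146, 1239, 1138 and 1213 TPM in replicates 1 to 4. Resection and helicase genes had the highest group median, 40.0 TPM over 6 genes, followed by Fanconi anaemia genes at 30.2 TPM over 8 and checkpoint genes at 26.2 TPM over 6. The recombination core had a median of 17.95 TPM over 10 genes and end joining 17.6 TPM over 6, and the mismatch repair gene Msh6 stood alone. The order of the recombination core and end joining did not hold in every library. In replicate 4 the median was 17.4 TPM for the core and 18.5 TPM for end joining. The order of genes depends on the length each count is divided by. Longest transcripts were taken from GENCODE M21, whereas counts and exon lengths came from GENCODE M13. For Rbbp8 (5471 against 3867 bases) and Fancm (7816 against 7775 bases) the longest transcript exceeds the counted exons. Per longest transcript instead of all exon bases, a scale chosen after seeing the data, 7 of the 37 levels moved by over 1.5 times, namely those of Palb2, Rad51ap1, Fanca, Fancc, Rbbp8, Atr and Topbp1. The median repair gene was then at 27.2 TPM, and the group medians kept their order, with 33.3 TPM for resection and helicase genes, 30.9 TPM for Fanconi anaemia, 27.4 TPM for checkpoint, 19.4 TPM for the recombination core and 17.8 TPM for end joining. Rad51c stayed the lowest at 3.20 TPM, whereas Topbp1, at 159 TPM, was then above Msh6, at 91.9 TPM. These are levels in bulk RNA, in which fewer cells expressing a gene and less of its RNA per cell cannot be told apart.

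**Figure D1:**
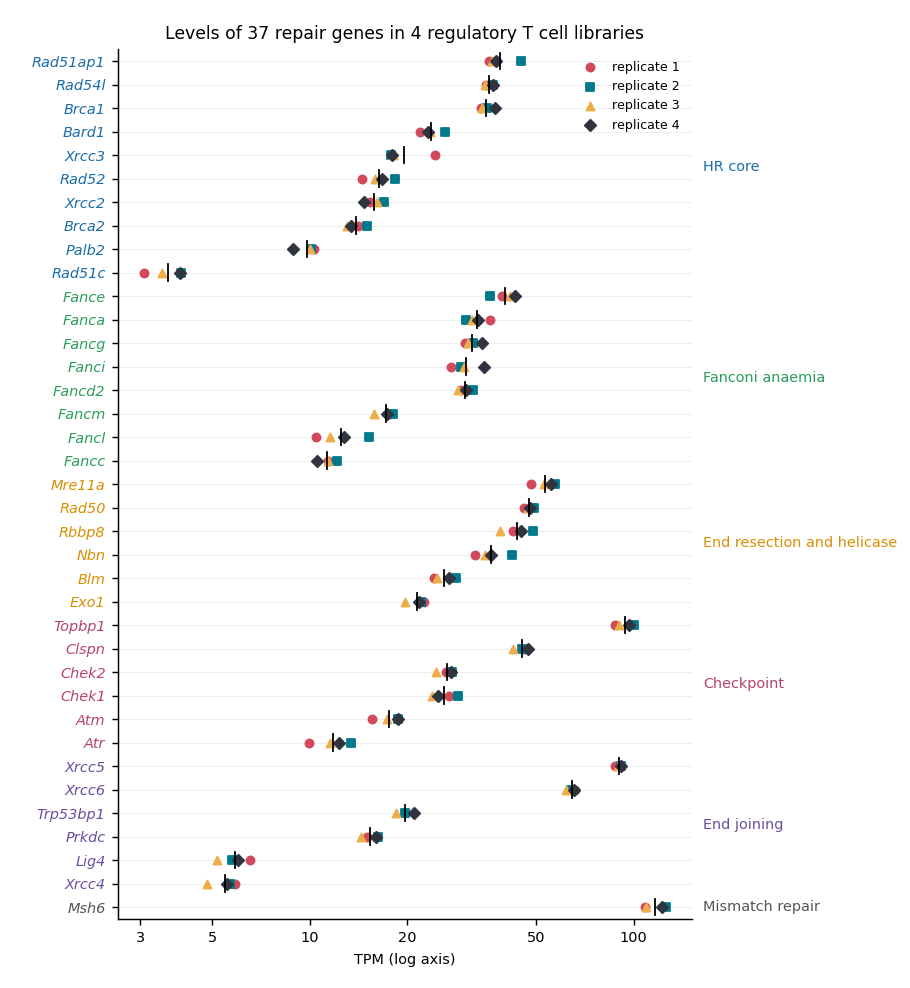
Level of each of the 37 repair genes in TPM over all exon bases (horizontal log axis) in each of the 4 libraries; vertical ticks mark the mean, and gene names are coloured by pathway. The levels run from Rad51c at 3.64 TPM to Msh6 at 116 TPM, and the 4 points of a gene lie close together beside the differences between genes, with Xrcc3 in replicate 1 the point that stands off from its own gene's others.

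Ordered by mean TPM over all exon bases, 29 of the 36 pairs of neighbouring repair genes overlapped in their ranges over the 4 libraries. This compares whole ranges and ignores that both genes were measured in the same libraries. An overlap therefore does not show that neighbours cannot be separated. Mre11a over Rad50 and Lig4 over Xrcc4, for example, overlapped but kept their order within each of the 4 libraries on this scale. The other 7 neighbours did not overlap on this scale. Msh6 stood above Topbp1, and Topbp1 overlapped with Xrcc5. Xrcc5 stood above Xrcc6, which stood above Mre11a. In the middle of the order, Fancd2 stood above Chek2. At the low end, Fancc stood above Palb2, Palb2 above Lig4, and Xrcc4 above Rad51c.

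The MRN complex finds broken ends and starts to trim them, and its subunits Mre11a and Rad50 were the highest of the resection genes. Its nuclease Mre11a had 48.2, 57.1, 52.9 and 55.4 TPM in replicates 1 to 4, and Rad50, the ATPase that tethers ends, had 46.0, 49.4, 47.2 and 47.8 TPM. Nbn, which recruits the Atm kinase to the complex, had 32.4, 42.0, 34.7 and 36.2 TPM. Nbn was thus below Rad50 in each library and Mre11a above it. On the log2(TPM + 1) scale, the difference within a library was 0.16 ± 0.07 (SD, n = 4) for Mre11a minus Rad50 and −0.39 ± 0.11 for Nbn minus Rad50. Rbbp8, also called CtIP, activates the complex and averaged 43.7 ± 4.25 TPM (SD, n = 4, as for the means below). Exo1, the exonuclease that extends resection, averaged 21.5 ± 1.25 TPM, or 0.493 ± 0.0343 of the Rbbp8 level. That gap of −0.99 ± 0.10 in log2(TPM + 1) shrank to −0.39 ± 0.10 per longest transcript and turned to 0.10 ± 0.10 in CPM, which takes no account of length. The longest transcript of Rbbp8 has 5471 bases, against 3867 bases of counted exon, as the lengths come from different annotation versions. Per longest transcript its counts are thus divided by bases that were not counted. The helicase Blm, which unwinds ends for long-range resection and dissolves joint molecules, had 24.2, 28.3, 24.8 and 26.9 TPM. All 6 of these genes averaged over 20 TPM on the exon-base scale, and 5 of 6 per longest transcript.

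Among the checkpoint genes, Topbp1, the scaffold that switches on the Atr kinase, was the highest, with 87.8, 99.9, 90.2 and 96.9 TPM in replicates 1 to 4. Claspin, encoded by Clspn and needed for Atr to reach its target Chek1, had 45.9, 45.2, 42.4 and 47.1 TPM. The apical kinases were lower. Atm, which responds to double-strand breaks, had 15.6, 18.8, 17.3 and 18.7 TPM. Atr, which responds to single-stranded DNA at stalled forks, had 9.95, 13.4, 11.6 and 12.3 TPM. Atr was below Atm in each library on this scale, by −0.54 ± 0.06 in log2(TPM + 1), but the order rests on gene length. The M13 annotation gives Atr 23629 bases of exon, against 8102 in its longest M21 transcript. When each gene was divided by its longest transcript, Atr averaged 27.2 TPM and Atm 14.6 TPM. The effector kinases were close to each other: Chek1, downstream of Atr, averaged 26.0 ± 2.16 TPM, and Chek2, downstream of Atm, averaged 26.5 ± 1.34 TPM. Their difference of −0.02 ± 0.08 was within the spread between libraries, with Chek1 higher in 2 of 4 (exact two-sided sign-flip permutation test, p = 0.75, adjusted p = 0.886 over 13 pairs).

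In the recombination core, levels ran from 3.64 to 38.8 TPM. Brca1, which promotes resection and loading of the recombinase, had 33.7, 35.4, 34.1 and 37.2 TPM in replicates 1 to 4. Its partner in the ubiquitin ligase heterodimer, Bard1, had 21.9, 26.1, 23.5 and 23.1 TPM, so that Brca1 stood at 1.49 ± 0.110 times the Bard1 level. Brca2, which delivers the recombinase to single-stranded DNA, had 14.1, 15.1, 13.02 and 13.4 TPM. Palb2, the bridge between Brca1 and Brca2, had 10.3, 10.1, 10.01 and 8.87 TPM. Brca2 was higher than Palb2 in each library by 0.46 ± 0.10 in log2(TPM + 1), whereas per longest transcript the difference turned to −0.11 ± 0.10, so no order between them holds on both scales.

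The paralogues of the recombinase were uneven in level. Rad51c, a member of both paralogue complexes, was the lowest of all 37 genes, with 3.09, 3.99, 3.51 and 3.97 TPM in replicates 1 to 4. It rested on 175 to 454 counts per library, the fewest of any repair gene. Its partner in the CX3 complex, Xrcc3, had 24.4, 17.8, 18.03 and 17.99 TPM. Rad51c was lower than Xrcc3 by −2.14 ± 0.34 in log2(TPM + 1), the widest gap of the 13 pairs, and stood at 0.192 ± 0.0453 of its level. Xrcc2, of the other paralogue complex, averaged 15.8 ± 0.971 TPM, so Xrcc2 and Xrcc3 stood near the core's median. Rad51d, a paralogue outside the 37 genes that was named after its values were seen, averaged 41.5 ± 3.33 TPM, above every core gene on this scale.

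The remaining core genes act on the recombinase filament. Rad51ap1, which stimulates strand invasion, had 35.9, 45.0, 36.6 and 37.6 TPM in replicates 1 to 4, the highest average of the core. Rad54l, the motor protein that helps the filament invade and then remodels it, was the steadiest of the core with 35.1, 36.7, 34.8 and 36.8 TPM. Rad52, an annealing factor, averaged 16.4 ± 1.60 TPM.

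Of the Fanconi anaemia genes, 5 of 8 averaged over 20 TPM. The core complex ligates ubiquitin to Fancd2 and Fanci, and its members differed in level. Fance, which bridges the complex to Fancd2, had 39.3, 35.9, 41.6 and 42.9 TPM in replicates 1 to 4, the highest mean over all exon bases; per longest transcript Fanca was higher, at 50.6 TPM against 45.8 TPM for Fance. Fanca averaged 32.8 ± 2.45 TPM and Fancg, which binds it, 31.7 ± 1.75 TPM. The catalytic subunit Fancl had 10.5, 15.2, 11.5 and 12.7 TPM, and Fancc, another subunit, 11.4, 12.1, 11.4 and 10.5 TPM, so both were below Fanca and Fancg in every library. Fancm, the translocase that anchors the complex on DNA, averaged 17.2 ± 0.993 TPM. The substrates Fancd2 and Fanci, which clamp DNA as a pair, averaged 30.1 ± 1.39 and 30.3 ± 3.09 TPM. For Fanci minus Fancd2 the difference was 0.01 ± 0.14 in log2(TPM + 1), with Fanci higher in 2 of 4 libraries (exact two-sided sign-flip permutation test, p = 1). For Fanca minus Fancg it was 0.05 ± 0.15, with Fanca higher in 2 of 4 (same test, exact p = 0.875, adjusted p = 0.948). These tests do not show that the partners are equal, since the differences ran from −0.12 to 0.18 for Fanci and from −0.07 to 0.25 for Fanca.

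The end joining genes held both some of the highest and some of the lowest levels. The Ku heterodimer, which caps broken ends, was abundant: Xrcc5 had 87.3, 91.1, 89.6 and 91.1 TPM in replicates 1 to 4, and Xrcc6 had 65.7, 64.2, 61.8 and 65.4 TPM. Xrcc6 was the lower of these partners in each library, at 0.716 ± 0.0273 of the Xrcc5 level. This order did not hold on other scales: the difference was −0.04 ± 0.05 per longest transcript, with Xrcc6 higher in 1 of 4 libraries, and 0.32 ± 0.05 in CPM. The ligase complex that seals the ends was scarce. Lig4, the ligase, had 6.53, 5.78, 5.19 and 6.01 TPM, and its scaffold Xrcc4 had 5.89, 5.67, 4.83 and 5.55 TPM. No library of either reached 7 TPM, and with Rad51c and Palb2 they made up the 4 repair genes that averaged under 10 TPM; per longest transcript Palb2 was above that level, at 15.2 TPM. Prkdc, the kinase that Ku recruits, averaged 15.4 ± 0.844 TPM. Trp53bp1, which shields ends from resection and so opposes Brca1, averaged 19.7 ± 1.05 TPM. It was below Brca1 in each library by −0.80 ± 0.04 in log2(TPM + 1). This SD was the smallest of the 13 differences, though close to that of Lig4 minus Xrcc4. The gap was −0.63 ± 0.04 per longest transcript and only −0.10 ± 0.05 in CPM.

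Msh6, which pairs with another subunit to recognise base mismatches, was the highest of the 37 genes over all exon bases, though below Topbp1 per longest transcript, with 108, 125, 109 and 122 TPM in replicates 1 to 4. It lies at chr17:87975050-87990883 on the plus strand of mm10. Of its 50-base stretches, 3.86% occur in 1 other annotated gene, the largest share among the repair genes, and reads placed there in more than 1 location would not have been counted.

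Across the 13 pairs of partners, 10 differed in the same direction in all 4 libraries. For each of these the exact two-sided sign-flip permutation test gave p = 0.13, the smallest that 4 libraries allow, and adjusted p = 0.1625 over the 13 pairs, so none could pass 0.05. Of the 10, 5 kept their direction on 3 scales, namely TPM over all exon bases, TPM per longest transcript and CPM, the count scaled to library size with no length correction. Those 5 were Brca1 over Bard1, Xrcc3 over Rad51c, Mre11a over Rad50, Rad50 over Nbn, and Brca1 over Trp53bp1. The other 5, which include Xrcc6 minus Xrcc5 and Lig4 minus Xrcc4, changed sign on at least 1 scale.

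**Figure D2:**
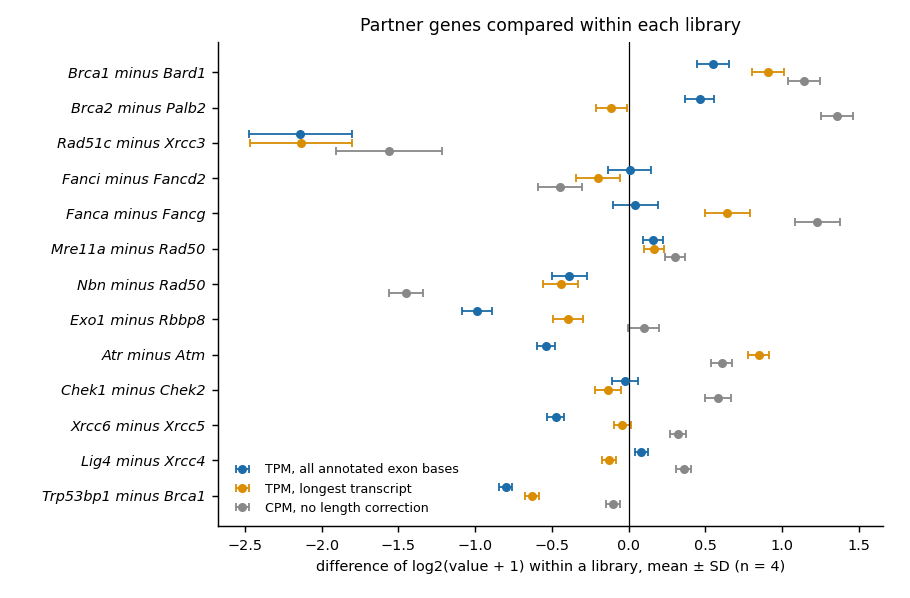
Difference of log2(value + 1) between the partner genes of 13 pairs, computed within each library; points are means and bars SDs over 4 libraries, in blue for TPM over all annotated exon bases, orange for TPM per longest transcript and grey for CPM. The gap of Rad51c minus Xrcc3 lies far left of 0 on every scale (−2.14 in TPM), whereas Atr minus Atm is −0.54 in TPM but 0.85 per longest transcript.

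E2F transcription factors, which switch on genes of S phase, are known to bind short forms such as TTTCCCGC near start sites. RefSeq promoter windows of the GRCm38.p6 build, from 250 bases before to 50 after the start, were given for 30 of the 37 repair genes. The forms searched on both strands were TTTCCCGC, TTTGGCGC, TTTGCCGC and TTTCGCGC. At least 1 form was found for 9 of the 30 genes (30.0%), namely Bard1, Brca2, Chek2, Clspn, Fancg, Msh6, Rad51c, Topbp1 and Xrcc6. Over expressed protein-coding genes 428 of 8562 (5.00%) held a form, over S phase genes 6 of 11 and over G2 and M phase genes 1 of 11. By pathway, a form was in 3 of 6 checkpoint genes, 3 of 9 of the recombination core, 1 of 7 Fanconi anaemia genes, 1 of 5 end joining genes, 0 of 2 resection and helicase genes, and Msh6. Of the other recombination and Fanconi genes 2 of 23 (8.70%) held a form, of the other damage signalling genes 2 of 13 (15.4%) and of the mostly silent meiotic genes 4 of 18 (22.2%). In the 4 stretches below the form lies upstream of the annotated gene, which is why they are shown; the last 2 bases of the Topbp1 stretch lie in the gene. They run 5′ to 3′ on the gene's strand, and capitals mark the E2F form.
Bard1, chr1:71103163-71103192, minus strand: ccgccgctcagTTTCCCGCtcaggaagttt
Chek2, chr5:110839820-110839849, plus strand: cgggattagccGCGGGAAAccaagacgtcg
Brca2, chr5:150522442-150522471, plus strand: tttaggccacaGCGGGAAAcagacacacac
Topbp1, chr9:103305187-103305216, plus strand: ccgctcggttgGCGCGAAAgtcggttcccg
Bard1 holds TTTCCCGC on its own strand, Chek2 and Brca2 hold its reverse complement GCGGGAAA, and Topbp1 holds GCGCGAAA, the reverse complement of TTTCGCGC. The form began 209 bases before the RefSeq start in Bard1, 152 in Chek2, 168 in Brca2 and 129 in Topbp1. In Fancg and Xrcc6 the form lies within an annotated UTR exon, and in Clspn, Msh6 and Rad51c it lies at or after the start.

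The 9 genes with a form had a median of 31.7 TPM, with a range of 3.64 to 116 TPM, and the 21 without had a median of 19.7 TPM, with a range of 5.48 to 89.8 TPM, so the levels overlapped widely. Rad51c, the lowest repair gene, and both Msh6 and Topbp1, the highest, held a form. The CHR element of genes of late cell cycle phases, searched as TTTGAA and TTCGAA on both strands, was in 2 of the 30 repair genes (6.67%), against 16.2% of expressed protein-coding genes and 9 of 11 G2 and M phase genes. CCAAT, searched on both strands, was in 17 of the 30 (56.7%) against 43.7%. It was also in 65.2% of the other recombination and Fanconi genes, 7 of 11 S phase genes and 11 of 11 G2 and M phase genes. Short forms known for the NRF1 and ETS transcription factors were searched too. They were in 3.33% and 6.67% of the 30 repair genes, against 2.59% and 10.3% of expressed protein-coding genes. A match is a description of these letters, and no binding was measured.

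Several repair genes share a start region with a neighbour on the opposite strand. Within 1000 bases, 14 of the 37 repair genes (37.8%) had a protein-coding gene that starts in the other direction, against 1877 of 10680 expressed protein-coding genes (17.6%). Levels within such pairs could lie far apart. Topbp1, at 93.7 TPM, lies 133 bases from 1300017J02Rik, which averaged 0.256 TPM, and Rad51c, at 3.64 TPM, lies 111 bases from Tex14, a germ cell gene, at 0.115 TPM. Prkdc, at 15.4 TPM, lies 466 bases from Mcm4, a subunit of the replicative helicase, at 249 TPM. Palb2, at 9.82 TPM, lies 56 bases from Dctn5 at 96.9 TPM. Brca1, at 35.1 TPM, lies 194 bases from Nbr1 at 41.2 TPM, and Rad54l, at 35.8 TPM, lies 150 bases from Pomgnt1 at 32.3 TPM, so in these pairs the levels were near each other.

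No repair gene was called for spread between the 4 libraries. A goodness-of-fit test in edgeR asked, for each gene, whether its counts spread between libraries more than the trend of all genes at its abundance, and called 51 of 13494 genes tested (0.378%) at adjusted p under 0.05. All 37 repair genes passed the filter and were tested, and 0 of 37 were called. Beside a share of 0.378% of all genes, 0 of 37 does not set the repair genes apart. At an unadjusted p under 0.05 the count was 0 of 37, against 805 of 13494 (5.97%) of all genes, and limma-voom residual variances also gave 0 of 37, where they called 0.104% of all genes tested. The lowest p among them was that of Xrcc3, 0.0967 in edgeR, with an adjusted p of 0.954. With 4 libraries and this spread, small differences cannot be called, and a missing call does not show that levels were equal. In simulated data with 1 library changed, the test called 8% of genes changed 1.5 times and 74% of genes changed 2 times. The changed genes were drawn above a limit of mean CPM that Rad51c, at 4.93 CPM, did not reach.

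**Figure D3:**
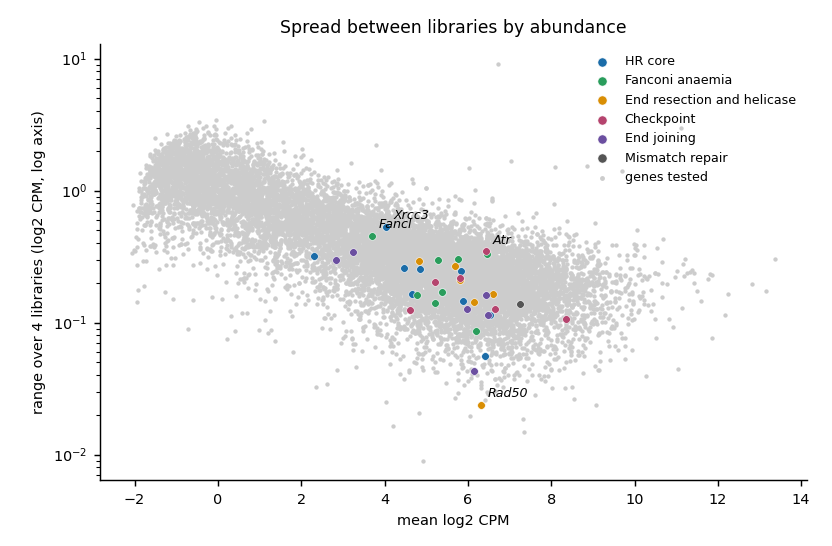
Range of log2 CPM over the 4 libraries (vertical log axis) against mean log2 CPM for the 37 repair genes, coloured by pathway, and for the 13494 genes tested in grey. The repair genes lie within the grey cloud, from Rad50 at a range of 0.02 to Xrcc3 at 0.53.

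The log2 CPM of a repair gene ranged over 0.17 between its highest and lowest library in the median, against 0.31 over all genes tested and 0.24 over the 9901 genes at or above the lowest repair gene in abundance. The range was under 0.5 in 36 of 37 repair genes, against 90.0% of those 9901 genes. Those genes share only a lower limit of abundance with the repair genes and were not matched to them. The coefficient of variation of TPM was 7.23% in the median repair gene and 9.03% in the median expressed gene. Rad50 had the smallest range, 0.02, followed by Xrcc5 at 0.04 and Rad54l at 0.06. The widest ranges were those of Xrcc3 at 0.53, Fancl at 0.46 and Atr at 0.35. Xrcc3, which lies at chr12:111803192-111813873 on the minus strand of mm10, stood apart in replicate 1, with 24.4 TPM against 17.8 to 18.03 TPM in the other 3 libraries. Its neighbour Zfyve21, which starts 297 bases away on the other strand, was also highest in replicate 1, with 22.6, 16.2, 18.2 and 19.8 TPM.

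Which library was highest in log2 CPM, scaled between libraries as in the edgeR test, was not evenly spread over the repair genes. The highest library can differ in TPM, as for Rad50 and Msh6, which were highest in replicate 2 in TPM but not in log2 CPM. Replicate 2 was highest for 15 of 37, replicate 4 for 11, replicate 1 for 9 and replicate 3 for 2. Replicates 1 and 3 were each lowest for 14 of 37, replicate 2 for 6 and replicate 4 for 3. Over all genes tested, replicates 1 to 4 were highest in 30.2%, 28.2%, 20.99% and 20.6% of genes and lowest in 30.1%, 28.9%, 19.96% and 21.1%. The repair genes' shares were 24.3%, 40.5%, 5.41% and 29.7% for the highest and 37.8%, 16.2%, 37.8% and 8.11% for the lowest. The shifts were small, with a median deviation of a repair gene from its own mean of −0.01, 0.03, −0.04 and 0.03 in log2 CPM in replicates 1 to 4. By pathway on this log2 CPM scale, resection genes were highest in replicate 2 in 4 of 6 and lowest in replicate 1 in 4 of 6. End joining genes were highest in replicate 1 in 3 of 6 and lowest in replicate 3 in 4 of 6.

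The deviations moved with the GC content of the transcript. Across the 37 genes, Spearman's rho between GC content and deviation was 0.286, −0.623, 0.366 and 0.0493 in replicates 1 to 4. Across 13472 tested genes with a GC value, it was 0.193, −0.367, 0.319 and −0.0990. These are descriptions across genes that share a library, and genes are not independent replicates. The 6 repair genes with at least 50% GC were Fanca, Fancc, Fance, Fancg, Xrcc3 and Xrcc6. Their median deviation was 0.05 in replicate 1 and −0.10 in replicate 2, against −0.01 and 0.05 for the 31 repair genes under 50% GC. With Xrcc3 left out, rho was 0.228 in replicate 1 and −0.590 in replicate 2. The part of GC content in the differences between libraries was not tested.

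**Figure D4:**
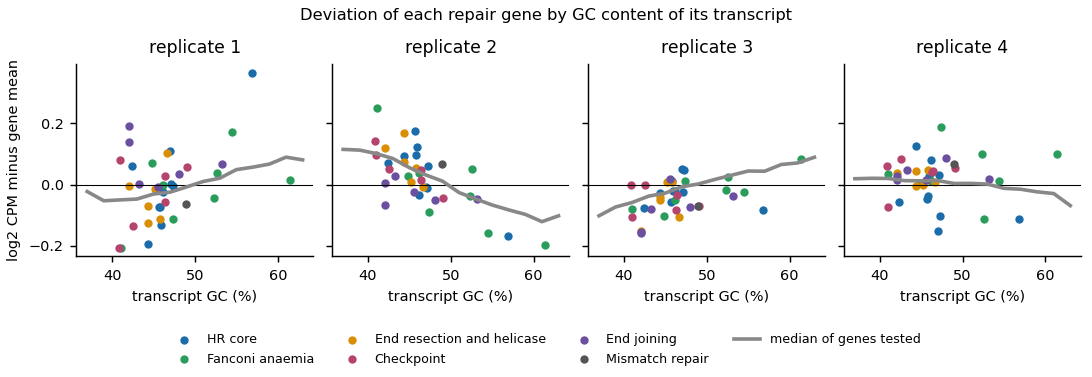
Deviation of each repair gene from its own mean (log2 CPM) in each of the 4 libraries, against the GC content of its longest transcript in percent; points are coloured by pathway and the grey line is the median of all genes tested in bins of GC. In replicate 2 the points fall with GC content, as does the grey line, and in replicate 1 Xrcc3 is the highest point.

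Related genes outside the 37 give the setting for these levels. Of 30 other recombination and Fanconi genes, 30 were expressed, and their median was 20.9 TPM. The highest were the single-strand binding subunits Rpa1 at 193 TPM and Rpa2 at 108 TPM and, between them, the recombinase cofactor Sfr1 at 188 TPM. The lowest were the helicase Mcm9 at 9.30 TPM, the paralogue Rad51b at 7.09 TPM and the nuclease Fan1 at 4.98 TPM.

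Of 18 other damage signalling genes, 17 were expressed, with the histone variant H2afx at 347 TPM, the poly(ADP-ribose) polymerase Parp1 at 197 TPM and the fork protector Tipin at 162 TPM highest. Rad1, a subunit of the checkpoint clamp, had 10.9 TPM and the ubiquitin ligase Rnf8 10.1 TPM. The exception was Atrip, the partner of Atr, with 0.349, 0.882, 0.590 and 0.485 TPM in replicates 1 to 4. Of Atrip's exon bases, 49.9% overlap another annotated gene on the same strand, and reads there would not have been counted, so its level is uncertain. For Rnf8 the overlapped share was 48.5%.

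All 8 other end joining genes were expressed. The polymerase Poll at 62.8 TPM, the shieldin subunit Mad2l2 at 45.9 TPM and the scaffold Xrcc1 at 43.6 TPM were highest. The lowest were the ligase cofactor Nhej1 at 11.5 TPM, the translesion polymerase Rev3l at 9.90 TPM and the nuclease Dclre1c, also called Artemis, at 6.22 TPM. Artemis had 6.93, 6.12, 6.33 and 5.49 TPM in replicates 1 to 4, beside means of 5.88 TPM for Lig4 and 5.48 TPM for Xrcc4.

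Genes for programmed breaks were mostly silent. Of 21 meiotic recombination genes, 5 were expressed, led by Psmc3ip at 21.2 TPM and Mnd1 at 20.4 TPM, which form a recombinase cofactor together, and by the cohesin subunit Rec8 at 6.39 TPM. Meiob, Sycp3 and Tex11 had no counts in any library; a count of 0 allows up to 3 counts, which is 0.0316 to 0.0919 CPM across the libraries and covers counting error only. Genes that act in antigen receptor gene rearrangement were below the expression threshold: Rag2 had no counts, Rag1 had at most 0.164 TPM in a library, and Dntt had 0.682, 2.49, 1.45 and 0.842 TPM. The S phase genes examined had a median of 184 TPM over 14 genes and the G2 and M phase genes 174 TPM over 13, all of them expressed, and the median of 9 p53 response genes, 9 of them expressed, was 66.9 TPM. Of the 100 genes tested in these lists, 0 were called in the edgeR test of spread between libraries, and 4 had an unadjusted p under 0.05, namely Mus81, Stag3, Cdc20 and Trp53inp1.

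**Figure D5:**
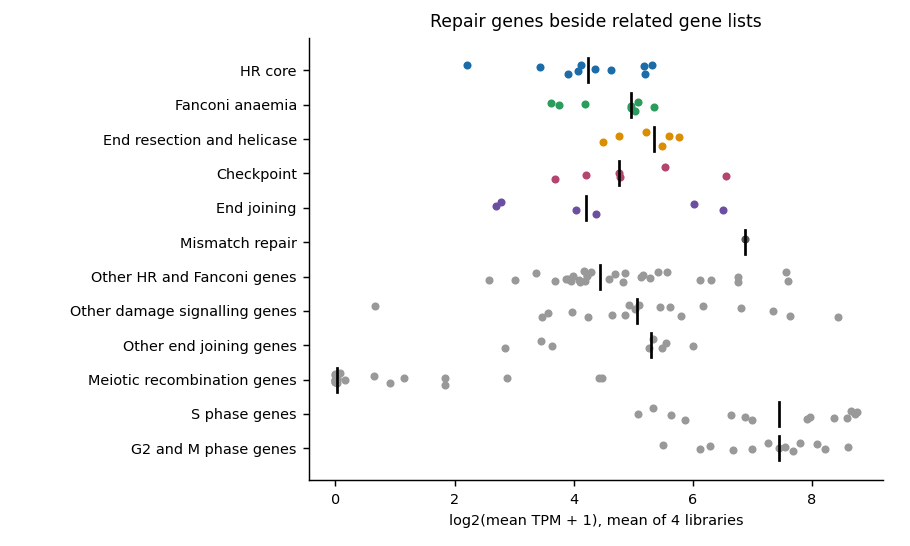
Mean level of each gene as log2(TPM + 1) over 4 libraries, for the repair genes by pathway (coloured, top 6 rows) and for related lists (grey); black ticks mark the medians. Most meiotic genes lie near 0, and S phase and G2 and M phase genes overlap the upper repair genes but have higher medians, 184 and 174 TPM against 26.1 TPM for the repair genes.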

How the data were processed

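RNA of 4 libraries was sequenced, and the authors deposited raw counts, whole read pairs for each gene, not normalized. Per the file headers, STAR alignments were counted by featureCounts 1.4.6-p4 over GENCODE M13 exons, paired, with both ends mapped and strand setting 2; per the labels the build is mm10. The assay is titled total RNA-seq, while the linked protocol is named for poly(A)+ RNA. By that counter's default, multimapping reads and reads in several genes were not counted. Symbols, longest transcripts and their GC content came from GENCODE M21 and promoters from RefSeq.

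TPM used the deposited counts and exon lengths. Spread between libraries was tested with edgeR 4.0.16 (TMM, filterByExpr with a minimum count of 10, trended dispersion, one-sided goodness of fit, Benjamini-Hochberg adjustment over all genes tested), across the 4 libraries, and the code was checked on simulated data. The 13 partner pairs were compared within libraries by exact two-sided sign-flip permutation on log2(TPM + 1), with a pseudocount of 1. The alternatives were DESeq2 1.42.0 size factors, other filters, limma 3.58.1, other length scales and pseudocounts, and leaving out each library; removal of the GC trend and the longest-transcript scale were chosen after seeing the data. No 2 libraries agreed within sampling noise (chi-square of at least 12.6 per gene). Of each related list, the 3 highest and 3 lowest genes by mean TPM and any called gene were named; genes at an unadjusted p under 0.05 were named after their values were seen. A gene of these lists is not reported here. The 37 genes and all lists were chosen with earlier results of these data known.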

Additional observations from a re-analysis of the deposited data

Results flagged for a closer look

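Of 50 sets of 4 values examined, 37 gene levels and 13 pair differences, 1 held a library far from the others. Xrcc3 had 24.4 TPM in replicate 1, against 17.8 to 18.03 TPM in replicates 2, 3 and 4, and this gap took up 0.964 of the gene's whole range, above Dixon's 95% critical value for 4 samples. Chance alone puts about 1 in 20 such sets past that value. The edgeR test of spread between libraries did not call Xrcc3 (adjusted p = 0.954).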

How the results depend on the processing

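No repair gene was called for spread between libraries under any of the 9 alternatives run. All 37 stayed at or above 0.5 TPM in every library, and 35 at or above 5 TPM. The count of called genes over the whole table was 51, and ran from 17 to 56 with a library left out (17 without replicate 1, 23 without replicate 3). It was 38 with all genes with at least 1 count kept, 67 with a filter at a mean of 1 CPM and 74 with the GC trend removed. The limma-voom count was 14.

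Of 104 alternative values of the pair differences, 91 kept their direction and 13 reversed; no p could reach 0.05 under any of them, so the tests bear nothing on stability. CPM ignores gene length and reversed Fanci minus Fancd2 (−0.45), Exo1 minus Rbbp8 (0.10), Atr minus Atm (0.61), Chek1 minus Chek2 (0.58) and Xrcc6 minus Xrcc5 (0.32). The longest-transcript scale, chosen after seeing the data, divides by another length and reversed Brca2 minus Palb2 (−0.11), Fanci minus Fancd2 (−0.20), Atr minus Atm (0.85) and Lig4 minus Xrcc4 (−0.13). With a library left out, 3 pairs changed sign: Fanci minus Fancd2 ran from −0.0506 to 0.0473 (−0.0134 without replicate 3, −0.0506 without replicate 4), Fanca minus Fancg from −0.0242 (without replicate 1) to 0.0839, and Chek1 minus Chek2 from −0.0513 to 0.0112 (without replicate 4). The cause was not tested.

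Per longest transcript, 28 of 37 gene levels moved by over 1 SD and 7 by over 1.5 times. Of the 185 other alternative levels, 181 stayed within 1 SD; the other 4 were Rad54l, Rad50, Xrcc5 and Xrcc6 with genes under 200 bp left out of the TPM denominator. No paired analysis was possible because the study has a single group. Depth limits the low genes most: Rad51c rested on 175 to 454 counts per library.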
